A study of Rattus norvegicus with 8 samples.

Results

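The 9 genes of the A-type potassium channel complex were followed in the neurohypophysis (the neural lobe, or posterior pituitary) of male Sprague Dawley rats aged 35 days (n = 4 libraries) or 125 days (n = 4). The members are the pore genes Kcnd1, Kcnd2 and Kcnd3, the channel-interacting protein genes Kcnip1, Kcnip2, Kcnip3 and Kcnip4, and the dipeptidyl-peptidase-like genes Dpp6 and Dpp10. They were matched by symbol, and all 9 were found among the 33294 genes listed. The family was picked from the whole transcriptome with its difference between the 2 ages already known, so every value of that contrast given for a member is a description and supports nothing. Each group was labelled by age alone, the 35-day group as the control, and no drug or gene change was labelled. The animals were perfused with PBS under isoflurane, and poly(A) libraries were made from the frozen lobe. The series was made to find how expression in this tissue differs with age. The labels do not say that each library came from a separate animal, so the spread between libraries may be technical in part.

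The A-type channels followed here are potassium channels that open at voltages below the spike threshold and inactivate within a short time. They thereby delay spiking and shape how spikes follow each other. Their pore is built from Kv4 subunits, encoded by the Kcnd genes. Partners of 2 kinds bind the pore: KChIPs (the Kcnip products), which are small calcium-binding proteins of the neuronal calcium sensor family, and DPP6 or DPP10, membrane proteins that resemble a peptidase but have no peptidase activity. Both kinds carry the pore to the cell surface and change the speed at which it inactivates and recovers. The neural lobe holds the axon terminals of the vasopressin and oxytocin neurons, whose spike patterns set hormone release, beside glia (pituicytes) and capillaries.

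Each library held 28429133 to 58696254 recovered reads. Values below are depth-normalized counts, which are gene read counts divided by 1 size factor per library. They are not scaled to gene length, so levels are compared between libraries for the same gene, not between genes. In limma, a linear model fitted to log2(value + 1) over the 17919 genes that reached 10 in 4 or more libraries, 17.7% of genes were called (Benjamini-Hochberg adjusted p below 0.05), 8.85% higher and 8.87% lower at 125 days. By principal components the ages parted on the first axis (53.4% of variance), and on the second (21.3%) 35-day replicate 3 stood away from all others. That library had the most anterior lobe hormone RNA, with Gh1, the growth hormone gene, at 2.68% of its summed values against 0.00392 to 0.358% in the other 7. Pomc, a hormone precursor gene listed here as an intermediate lobe marker, took 5.65 to 10.2% at 35 days and 10.1 to 14.3% at 125 days. The 10.2% was that of 35-day replicate 3, against 5.65 to 6.78% in the other 35-day libraries. In replicate 3 the melanotroph genes Pax7, Tbx19 and Drd2 were the lowest of that age. Pax7 was at 7697.5 to 13398 at 35 days and 9716 to 12113.5 at 125 days, so libraries labelled neural lobe carried intermediate lobe RNA. The pituicyte gene Rax was present at 1615 to 2531 depth-normalized counts at 35 days and 1351 to 2611 at 125 days. It was not called, as were most of the 9 pituicyte markers listed. Of that list Gfap, S100b and Aqp4 were called lower (log2 changes -1.62, -1.39 and -1.22) and Crym was called higher (0.80).

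Dpp10 was 31.9-fold higher and Kcnip1 12.7-fold higher at 125 than at 35 days, as ratios of group means, and Kcnd3 was 3.28-fold higher, while Kcnip2 was lower. Of the 9 members, 5 were called higher (Dpp10, Kcnip1, Kcnd3, Kcnip3 and Kcnd2), 1 was called lower (Kcnip2) and 3 were not called (Kcnd1, Kcnip4 and Dpp6), beside the background of 8.85% higher and 8.87% lower. The ages did not overlap in 7 members, beside 24.9% of all genes tested. Nothing is read from these counts, since the choice of the family drew on the same contrast. All 9 members reached 10 in all 8 libraries, so none entered the fit through 1 age alone. The median log2 change of the 9 was 0.69, and that of all genes tested was 0.01.

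**Figure D1:**
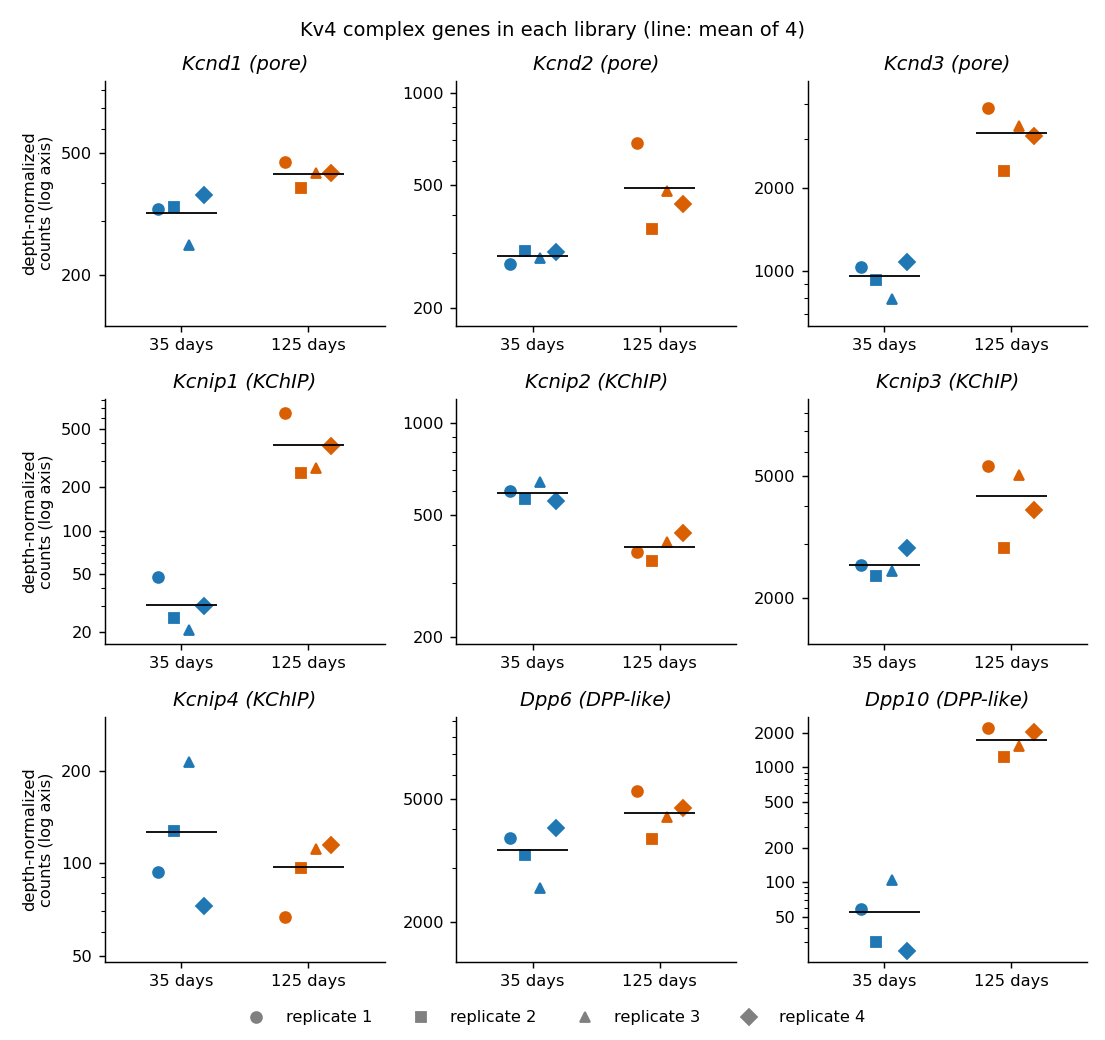
Depth-normalized counts (log axis) of the 9 genes in each library, 35 days in blue and 125 days in orange, with 1 marker shape per replicate and a line at the mean of 4. The 125-day libraries of Dpp10 (1223 to 2189) lie far above those of 35 days (25.4 to 104.6), while the ages of Kcnip4 and Dpp6 overlap.

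The start regions of the 3 genes with the largest rises are shown here to let their sequence be read beside the values. They come from RefSeq on build GRCr8, which is not the build of the deposited counts (rn7), and run from 250 bases before to 50 after each annotated start, 5′ to 3′ on the gene's strand. Dpp10 and Kcnip1 each have 2 annotated starts, and the counts do not tell which was used. The starts are numbered by rising genome coordinate, so for these minus-strand genes the second start lies upstream of the first. Capitals mark matches on either strand to the GC box (GGGCGG), to which Sp1-type factors bind, and to the core GTCA of the downstream regulatory element (DRE), which the KChIP encoded by Kcnip3 is known to bind.
Dpp10, first start, chr13:37966166-37966465, minus strand: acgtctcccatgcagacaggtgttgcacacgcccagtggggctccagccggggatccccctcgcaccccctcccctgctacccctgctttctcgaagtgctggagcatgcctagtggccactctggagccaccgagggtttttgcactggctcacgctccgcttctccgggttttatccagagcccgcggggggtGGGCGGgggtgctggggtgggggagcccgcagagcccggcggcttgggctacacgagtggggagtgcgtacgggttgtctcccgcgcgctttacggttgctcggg
Dpp10, second start, chr13:38821938-38822237, minus strand: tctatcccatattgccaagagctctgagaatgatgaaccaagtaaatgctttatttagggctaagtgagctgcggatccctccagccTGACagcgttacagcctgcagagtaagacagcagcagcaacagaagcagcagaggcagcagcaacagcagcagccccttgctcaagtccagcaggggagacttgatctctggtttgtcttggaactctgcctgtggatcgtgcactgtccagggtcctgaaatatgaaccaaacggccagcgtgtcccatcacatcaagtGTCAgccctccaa
Kcnip1, first start, chr10:18940760-18941059, minus strand: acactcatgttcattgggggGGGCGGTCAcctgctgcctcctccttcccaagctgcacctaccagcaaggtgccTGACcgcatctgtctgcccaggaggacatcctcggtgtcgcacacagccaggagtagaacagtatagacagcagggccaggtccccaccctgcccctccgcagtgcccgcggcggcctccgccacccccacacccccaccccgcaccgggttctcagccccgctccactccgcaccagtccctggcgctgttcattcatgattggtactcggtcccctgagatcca
Kcnip1, second start, chr10:19092976-19093275, minus strand: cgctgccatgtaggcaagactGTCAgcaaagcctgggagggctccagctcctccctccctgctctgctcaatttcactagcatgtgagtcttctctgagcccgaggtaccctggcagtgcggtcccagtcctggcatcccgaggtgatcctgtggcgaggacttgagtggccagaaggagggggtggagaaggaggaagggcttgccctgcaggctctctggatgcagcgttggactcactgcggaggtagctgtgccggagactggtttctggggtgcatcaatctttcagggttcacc
Kcnd3, chr2:195626066-195626365, plus strand: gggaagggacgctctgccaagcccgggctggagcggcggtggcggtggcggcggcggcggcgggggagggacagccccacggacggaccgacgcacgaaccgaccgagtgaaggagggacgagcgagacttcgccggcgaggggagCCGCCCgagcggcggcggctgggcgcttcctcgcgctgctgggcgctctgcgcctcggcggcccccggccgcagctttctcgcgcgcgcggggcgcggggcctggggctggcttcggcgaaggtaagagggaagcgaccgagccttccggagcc

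The Kcnd3 region is the richest in CpG of the 9 start regions found for 7 members, with 48 CpG and 77.7% GC, against a median of 7 CpG and 51.7% GC over 33469 start regions. The first Dpp10 start has 23 CpG and the second 5, and the Kcnip1 starts have 15 and 8. The GC box was in 6 of the 9 member regions and in 33.1% of all regions. The DRE core was in 6 of 9 and in 85.6% of all. The cyclic AMP response element (TGACGTCA), the AP-1 site (TGANTCA) and the TATA box (TATAAA) were in none of the 9, and in 1.83%, 7.33% and 14.2% of all regions. The half-site TGACG, which shares letters with the DRE core and lies within the full element, was in 1 of 9, that of Kcnip3, and in 21.2% of all. Kcnd1 and Kcnip4 were not matched.

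Of the pore genes, Kcnd3 (Kv4.3) had the largest difference between ages. At 35 days it was at 1038, 927, 797 and 1080.3 depth-normalized counts in replicates 1 to 4, and at 125 days at 3887, 2299, 3335 and 3086. Every 125-day library was thus above every 35-day library, and 125-day replicate 2 was the lowest of its age. The means were 961 ± 127 and 3152 ± 660 (SD, n = 4), a log2 change of 1.70 (SE 0.16), which was larger than the change of 99.1% of the genes tested.

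Kcnd2 (Kv4.2), the pore subunit best known from dendrites of forebrain neurons, was at 278, 306, 289.9 and 303 at 35 days and at 688, 359.7, 480.4 and 433 at 125 days. The 35-day libraries were close together, with a coefficient of variation of 4.44%, while 125-day replicate 1 stood highest. Its log2 change was 0.69 (SE 0.18). The call was lost without 35-day replicate 1 or 2 or 125-day replicate 3 or 4, at log2 changes of 0.67, 0.71, 0.69 and 0.74, and when intermediate lobe markers entered the fit as a covariate (0.61, SE 0.21).

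Kcnd1 (Kv4.1) was at 329.9, 334.8, 251.7 and 365 at 35 days and at 468, 385, 429.9 and 431 at 125 days. The ages did not overlap, yet the gene was not called (log2 change 0.43, SE 0.14). It was called without 35-day replicate 3, its lowest library, at a smaller change of 0.32 (SE 0.10), without 35-day replicate 4 (0.50, SE 0.14) and by DESeq2 on recovered reads (0.41). Within each library, the Kcnd3 value over the Kcnd2 value ranged over 2.75 to 3.74 in the younger and 5.65 to 7.13 in the older libraries, a 2.003-fold higher ratio, and that over Kcnd1 was 2.41-fold higher. These ratios do not depend on the size factors, and their absolute size depends on gene lengths that were not used.

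**Figure D2:**
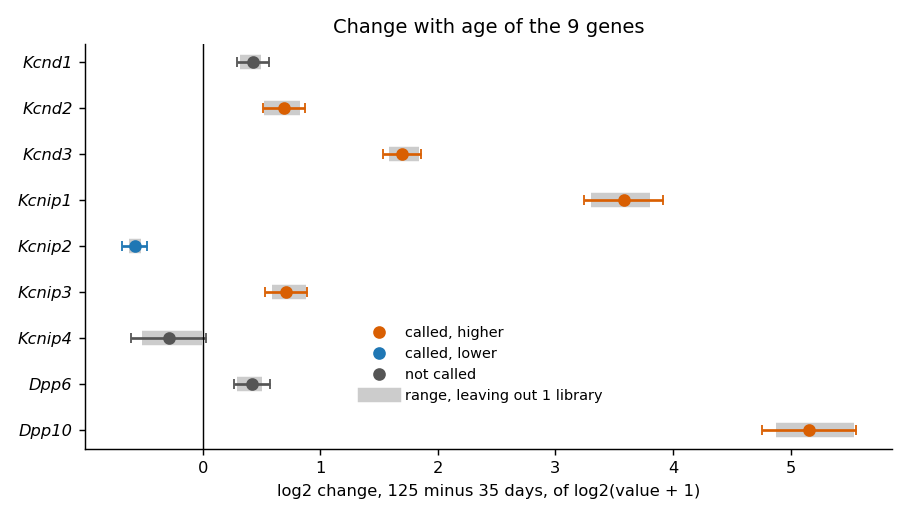
Log2 change from 35 to 125 days, on the log2(value + 1) scale, for each of the 9 genes, with bars of 1 SE and grey bands for the range when 1 of the 8 libraries is left out. Dpp10 (5.16), Kcnip1 (3.58) and Kcnd3 (1.70) lie to the right, Kcnip2 (-0.58) lies below 0, and the band of Kcnip4 ends near 0.

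Of the 4 KChIP genes, Kcnip1 and Kcnip3 were called higher, Kcnip2 was called lower and Kcnip4 was not called. Kcnip1 (KChIP1) was at 47.5, 24.8, 20.7 and 29.9 depth-normalized counts at 35 days and at 647, 251.2, 271 and 385 at 125 days. It rested on 135 reads in all at 35 days and 1503 at 125 days. Replicate 1 was the highest library at each age, and the lowest 125-day library lay far above the highest at 35 days (251.2 against 47.5). The log2 change was 3.58 (SE 0.33), the 15th largest rise among the genes tested, and it ran from 3.30 to 3.81 when 1 library was left out. In the reference annotation the span of Kcnip1 overlaps Kcnmb1, which encodes a BK channel subunit of smooth muscle. Kcnmb1 had means of 204.6 at 35 days and 75.8 at 125 days, opposite in direction to Kcnip1. The lncRNA LOC120095244, which also lies in that span, had means of 3.39 and 27.4, in the same direction as Kcnip1. The strand setting of the counting is not given in the sources used here, so reads that overlapping genes share cannot be told apart.

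Kcnip2 (KChIP2), the KChIP that supports the transient outward current of heart muscle, was the member that fell. It was at 598, 562, 643 and 557 at 35 days and at 379.9, 354, 409 and 438 at 125 days. The ages did not overlap, and the coefficients of variation were only 6.72% and 9.19%. The means were 590.0 ± 39.7 and 395 ± 36.3 (SD, n = 4), with a log2 change of -0.58 (SE 0.11), and the call was lost once anterior lobe markers entered the fit (-0.48, SE 0.14). Within libraries, the Kcnip1 value over the Kcnip2 value ranged over 0.0322 to 0.0794 at 35 days and 0.664 to 1.70 at 125 days, an 18.5-fold higher ratio.

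Kcnip3 encodes KChIP3, also called DREAM or calsenilin, which besides binding Kv4 acts as a calcium-regulated repressor of transcription at DRE sites. Its values were 2560.0, 2357, 2445 and 2907 at 35 days and 5366, 2920.5, 5023 and 3883 at 125 days. The lowest 125-day library, replicate 2, was barely above the highest 35-day one (2920.5 against 2907). The log2 change was 0.71 (SE 0.18), and the call was lost without 35-day replicate 1 or 2 or 125-day replicate 1 or 3, at changes of 0.59 to 0.71, and with the intermediate lobe covariate (0.59, SE 0.20).

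Kcnip4 (KChIP4), some of whose isoforms slow inactivation, was at 93.7, 127, 214 and 72.8 at 35 days and at 67.0, 96.8, 111 and 114 at 125 days. The ages overlapped, and 35-day replicate 3, the library with the most anterior lobe RNA, was the highest of all 8. The log2 change of -0.29 (SE 0.32) did not pass the threshold, and it was 0.27 (SE 0.36) with the anterior lobe covariate. With 1 library left out it ran from -0.52 to -0.0018.

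Of the DPP-like genes, Dpp10 had the largest difference of the 9 members. It was at 58.4, 30.0, 104.6 and 25.4 depth-normalized counts at 35 days and at 2189, 1223, 1529 and 2026 at 125 days. It rested on 218 and 6692 reads in all. 35-day replicate 3 was the highest of its age, yet it was far below the lowest 125-day library. The log2 change of 5.16 (SE 0.40) was the third largest rise among the genes tested, and it ran from 4.87 to 5.54 when 1 library was left out. The coefficient of variation was 66.7% at 35 days and 25.6% at 125 days.

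Dpp6, the other DPP-like gene, was at 3729.9, 3297, 2575 and 4037 at 35 days and at 5323, 3719, 4390.2 and 4685 at 125 days. The ages overlapped, because 125-day replicate 2 lay below 35-day replicates 1 and 4. The means were 3409.9 ± 634 and 4529 ± 666 (SD, n = 4), and the log2 change of 0.42 (SE 0.16) did not pass the threshold. The Dpp10 value over the Dpp6 value ranged over 0.00629 to 0.0406 at 35 days and 0.329 to 0.432 at 125 days, a 27.4-fold higher ratio. Of the summed values of both genes, Dpp10 thus made up 0.625 to 3.90% at 35 days and 24.7 to 30.2% at 125 days, without correction for length.

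**Figure D3:**
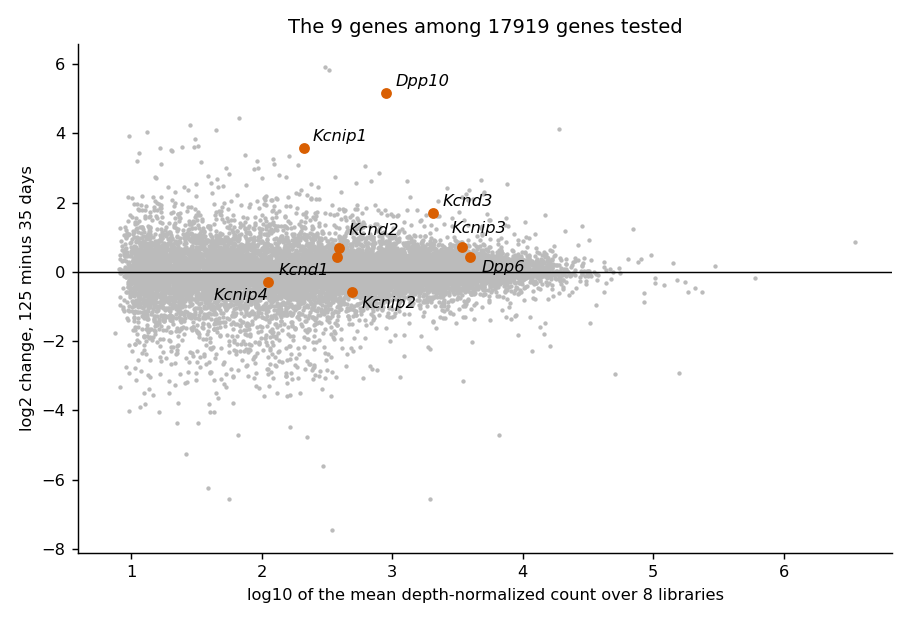
Log2 change from 35 to 125 days against the log10 mean depth-normalized count over 8 libraries for the 17919 genes tested (grey), with the 9 genes in orange. Dpp10 and Kcnip1 stand at the upper edge of the cloud, and Kcnd1, Kcnip4 and Dpp6 lie within it.

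The order of libraries within an age was also read. At 125 days replicate 2 was the lowest of its age in 8 of the 9 members, all but Kcnip4, and in 35.1% of all genes tested. Replicate 1 was the highest in 7 members, all but Kcnip2 and Kcnip4, and in 29.6% of all genes tested. Of the 125-day libraries, replicate 2 also had the lowest Pomc share (10.1%), the lowest summed anterior lobe markers (6508) and the highest summed pituicyte markers (38494, against 26638 to 30111 in the others). It was also the highest of its age in the sums for endothelium (26274 against 13075 to 17994), mural cells (7396 against 4508 to 5260.3), fibroblasts (37277 against 24368 to 27062), the oligodendrocyte lineage (7209 against 5470.1 to 5826) and microglia and macrophages (11479.6 against 7246 to 9807), and the lowest for neuron and axon markers (35609.6 against 38153 to 39266). Replicate 1 had the lowest pituicyte sum. The part of tissue composition in this order was not tested. At 35 days replicate 3 was lowest in 4 members and highest in 3 (Kcnip2, Kcnip4 and Dpp10), beside 40.0% and 38.7% of all genes tested, so members went opposite ways in that library. Replicate 4 was lowest in 3 and highest in 4.

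Markers of the cells a dissected lobe can hold gave the following beside these changes. In such bulk tissue, fewer cells of a type and less RNA per cell cannot be told apart. Of the 6 intermediate lobe markers 5 were tested and 1, Pcsk2, was called higher (log2 change 0.79, SE 0.19, limma adjusted p = 0.0193), and Oprm1 was near 0. The list summed to 2016424 to 3764256 at 35 days and 3615991 to 5345613 at 125 days, nearly all from Pomc. The top 35-day sum was that of replicate 3, the library with the most anterior lobe RNA. Pomc was 1.79-fold higher at 125 days as a ratio of means and not called (log2 change 0.87, SE 0.57). That SE draws on the variance trend over genes of like intensity, not on the Pomc libraries alone. As log2 over the mean at 35 days, the ages of Pomc overlapped only through 35-day replicate 3 (0.55). The other 35-day libraries were at -0.38 to -0.18 and the 125-day libraries at 0.48 to 1.05. The melanotroph transcription factor genes Pax7 (11107 ± 2416 and 10879 ± 1138; SD, n = 4) and Tbx19 (7013 ± 1157 and 8482 ± 1864) and the dopamine receptor gene Drd2 (17767 ± 2661 and 17389.5 ± 2873) were not called. The part of intermediate lobe content in the members' changes was not tested. The intermediate lobe covariate was not the summed value but the mean of log2(value + 1) over the 6 markers. In that mean Oprm1, at 6 reads in all at 35 days and 5 at 125 days, weighs as much as Pomc. The mean ran from 12.4 to 13.0 at 35 days and from 12.7 to 13.4 at 125 days. With this covariate the log2 changes were 5.32 (SE 0.47) for Dpp10, 3.25 (SE 0.34) for Kcnip1 and 1.51 (SE 0.15) for Kcnd3.

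Of 10 anterior lobe markers 4 were called lower and none higher, and their sum ran from 24266 to 1394211 at 35 days and from 6508 to 50156 at 125 days. The 4 were Lhb, Fshb, Cga and Gnrhr (log2 changes -4.69, -3.15, -2.13 and -2.82), whose ages did not overlap. Gh1, Prl, Tshb, Pou1f1, Ghrhr and Trhr were not called, and their ages overlapped. With the mean log2(value + 1) of the 10 markers as a covariate the log2 changes were 5.64 (SE 0.50) for Dpp10, 3.21 (SE 0.43) for Kcnip1 and 1.66 (SE 0.22) for Kcnd3. Without 35-day replicate 3 they were 5.54 (SE 0.28), 3.42 (SE 0.33) and 1.61 (SE 0.15), and 7 members were called, beside 30.7% of all genes tested.

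Neuron and axon markers summed to 26817 to 29717 at 35 days and 35609.6 to 39266 at 125 days. Of the 9, 3 were called higher (Oxt, Snap25 and Rbfox3) and 1 lower (Nefl). Snap25 (means 12383 and 17957) and Syt1 (6486 and 8770, not called) were the largest terms of the sum. Avp, Nefm, Tubb3 and Elavl3 were not called. Pituicyte markers summed to 40049 to 48655 at 35 days and 26638 to 38494 at 125 days, with 1 of 9 higher and 3 lower. The lower-at-125-days lists were mural cells (7 of 7 lower), fibroblasts (5 of 6), endothelium (4 of 7) and microglia and macrophages (3 of 7 lower, 1 higher), while none of the 8 oligodendrocyte lineage markers was called. No marker was at 0 in all 8 libraries. The part of these cell types in the members' changes was not tested.

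**Figure D4:**
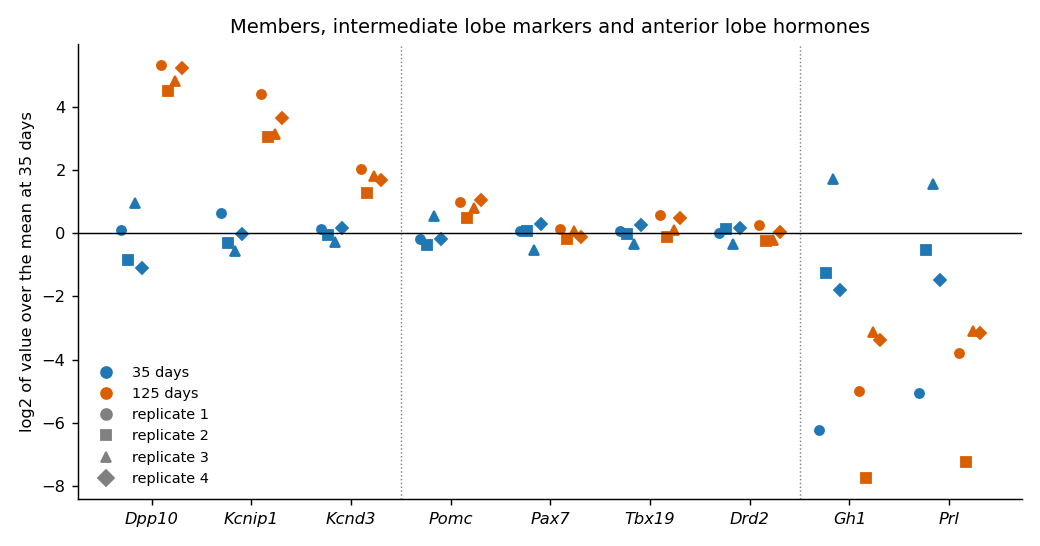
Log2 of each library's value over the mean at 35 days for 3 members, 4 intermediate lobe markers (Pomc, Pax7, Tbx19, Drd2) and 2 anterior lobe hormone genes (Gh1, Prl), blue for 35 days and orange for 125 days, with 1 marker shape per replicate. The 125-day points of Dpp10 lie at 4.49 to 5.33, those of Pax7 at -0.19 to 0.12, and Gh1 and Prl spread widely within each age. All 6 lobe markers drawn were not called. Pcsk2, the intermediate lobe marker called higher, and the 4 anterior lobe markers called lower are not drawn.

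Other genes around the A-type current were read from 6 short lists. Their adjusted p-values are those of the fit over all genes tested. The lists were chosen with earlier results of these data known, so the counts within them are descriptions. Beside them, 8.85% of all genes tested were called higher and 8.87% lower. Of the 5 genes reported here for other A-type pores and Kv beta subunits, none was called by limma (0 by edgeR, 0 by DESeq2, and 0 at an unadjusted p below 0.05). Kcna4, which encodes Kv1.4, the classical A-type pore outside the Kv4 group, was at 373 ± 61.0 and 386 ± 49.1 depth-normalized counts (SD, n = 4), with a log2 change of 0.05 (SE 0.15). Kcnc4 (Kv3.4) had a log2 change of -0.14 (SE 0.23), and the Kv beta genes Kcnab1, Kcnab2 and Kcnab3 had changes of -0.07 (SE 0.16), 0.13 (SE 0.09) and -0.31 (SE 0.15). The median of the 5 was -0.07 beside 0.01 for all genes tested.

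Of the 11 other accessory and trafficking genes of Kv4 channels reported here, 1 rose and 2 fell, and 1 rose and 5 fell without 35-day replicate 3. Kcne3, which encodes a single-span channel subunit, fell from 39.5 ± 10.2 to 9.37 ± 2.99 (SD, n = 4; log2 change -1.97, SE 0.30, limma adjusted p = 0.00175). Its relative Kcne5 fell from 55.2 ± 6.34 to 28.0 ± 8.29 (limma adjusted p = 0.0187), a call lost without 35-day replicate 1 or 125-day replicate 1 or 3 (0.0510 to 0.0586), with the replicate block (0.0506) and with the intermediate lobe covariate (0.0858). Dlg4, of the scaffold PSD-95, rose by 0.37 on the log2 scale (SE 0.11, limma adjusted p = 0.0377), a call lost in 11 of the 19 alternatives. None of 8 genes for kinases that act on Kv4 was called by limma (1 by DESeq2, 0 by edgeR, and 1 at an unadjusted p below 0.05). Limma called 1 of the 8 without 35-day replicate 3 and 1 without 35-day replicate 4. The nearest was Camk2a (log2 change 0.53, SE 0.16, adjusted p = 0.0511).

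The relatives of DPP6 and DPP10 that keep peptidase activity went both ways. Fap, a fibroblast protease gene, fell from 219 ± 34.4 to 77.4 ± 18.5 (log2 change -1.50, SE 0.20, limma adjusted p = 8.45e-04). Dpp4 rose by 0.55 on the log2 scale (SE 0.17, limma adjusted p = 0.0445), a call lost in 12 of the 19 alternatives, and Dpp8 and Dpp9 were not called. Of 9 other neuronal calcium sensor genes, 5 were tested and 1 was called: Vsnl1, encoding visinin-like protein, fell from 490.4 ± 177 to 195 ± 29.8 (log2 change -1.27, SE 0.24, limma adjusted p = 0.00633), but did not pass with anterior lobe markers in the fit (-0.92, adjusted p = 0.0670). Ncs1, Hpcal1, Hpcal4 and Ncald were not called, and Hpca, Rcvrn, Guca1a and Guca1b were below the filter.

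Genes reported elsewhere as targets of DREAM, the Kcnip3 product, were put in a list with the rises of Pdyn and Bdnf already known, so the list is no independent evidence of a direction. Of its 8 genes 5 were called higher and none lower, beside 8.85% and 8.87% of all genes tested, and nothing is read from this count. Pdyn, the prodynorphin gene and the classical DREAM target, was at 1155 to 1415 depth-normalized counts at 35 days and 5487 to 6843 at 125 days (log2 change 2.35, SE 0.11, limma adjusted p = 3.15e-06). Bdnf, a growth factor gene, rose by 1.79 on the log2 scale (SE 0.15, limma adjusted p = 5.4e-05). Crem, whose locus also encodes the repressor ICER, was 2.14-fold higher (3095 ± 800.3 and 6626 ± 832; SD, n = 4; limma adjusted p = 0.00389). The nuclear receptor gene Nr4a1 rose by 1.44 on the log2 scale (SE 0.26, limma adjusted p = 0.00504). Fos rose by 2.08 on the log2 scale (SE 0.61, limma adjusted p = 0.0406), but its ages overlapped (371 to 2402 and 2100.4 to 8488) and the call was lost in 8 of the 19 alternatives. The exchanger gene Slc8a3 (146 ± 15.6 and 143 ± 4.92), Hrk (109.5 ± 12.6 and 103 ± 26.9) and Npas4 (10.05 ± 3.31 and 9.95 ± 7.07) were not called. Kcnip3 itself was higher at 125 days, as given above.

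The genes whose values followed a member most closely were taken as those with the highest Pearson r on log2(value + 1), among tested genes with a symbol and a mean of at least 100. Over all 8 libraries such an r mostly follows the split between the ages. For Dpp10 they were Zwint, Tdrd5 and Bdnf (r = 0.996, 0.995 and 0.994), for Kcnip1 Slc35d2, Cd200 and Hadh (0.992, 0.992 and 0.991), for Kcnd3 Mindy1, Nceh1 and Ppm1k (0.9945, 0.993 and 0.992), and for Kcnip2 the cell division genes Cdkn3, Kif2c and Cdca2 (0.9905, 0.988 and 0.986). On deviations from the age means over the same 8 libraries, the nearest were Ak6 for Dpp10 (0.997), Ankrd13a for Kcnip1 (0.985), Pnpla3 for Kcnd3 (0.983), Ddx56 for Kcnip2 (0.971), C2cd5 for Kcnip3 (0.964), Ppm1d for Kcnd2 (0.952), Cpeb3 for Kcnd1 (0.995), Rhob for Kcnip4 (0.985) and Htr5a for Dpp6 (0.993). For C2cd5, Cpeb3, Rhob and Htr5a the gene nearest over all 8 libraries was also the nearest on deviations. These are descriptions over 8 libraries, without a test, and each gene was picked from 12811 compared. For Dpp10 the deviations were widest at 35 days, from -0.85 in replicate 4 (45 reads) to 1.15 in replicate 3 (96 reads). At 125 days they ran from -0.47 to 0.37.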

How the data were processed

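The deposited table holds depth-normalized counts, a signal that the authors made by dividing gene read counts by 1 size factor per library. The values show this: divided by the lowest value above 0 in the library, 100% came out whole (within 0.001 reads). Tools named, with no role or order, in the submitters' processing notes are DESeq2 1.34.0, featureCounts, Subread 2.0.1, HISAT2 2.2.1, Trimmomatic 0.39 and SAMtools 1.13, and the build is rn7. Neither annotation nor strand setting is given in the sources used here. Size factors ran from 0.793 to 1.77.

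Ages were compared two-sided in limma 3.58.1 (run in R 4.3.3), which let the variance follow intensity. The fit used log2(value + 1) of 17919 genes and had no term but age. The script was tested on simulated data. edgeR 4.0.16 and DESeq2 1.42.0 were run on recovered reads as alternatives. Other alternatives were pseudocounts of 0.5 and 5, other filters, TMM scaling, no trend, the replicate number as a block, 2 marker covariates and leaving out each library. The members, lists and tests were chosen with earlier results of these data known. From these lists 2 genes are not reported here, and counts and medians leave them out. Named genes were the 9 members, up to 4 called genes per list with the lowest adjusted p, any gene of the A-type and DREAM lists, markers, and the 3 nearest genes per member. Kcnmb1, the genes named as not called and Camk2a were chosen after their values were seen. Replicates sharing a number are not stated to share a source. Figures used matplotlib 3.10.9.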

Additional observations from a re-analysis of the deposited data

Results flagged for a closer look

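Among 28 named genes, each looked at in both ages (56 groups of 4), 4 groups held a library whose gap to its nearest neighbour took up nearly the whole range (0.851 to 0.928 of it). Chance alone gives about 1 in 20 such groups, and none of the 4 was a member of the channel complex. In 125-day replicate 2, Kcna4 was the lowest of its age at 313 depth-normalized counts (others 406 to 413.5) and Pdyn the lowest at 5487 (others 6667 to 6843). Kcnab1 was lowest in 35-day replicate 3 at 136 (others 196 to 201.5), the library with the most anterior lobe RNA. Crem was lowest in 35-day replicate 4, the deepest library, at 1907 (others 3330.1 to 3579).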

How the results depend on the processing

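Of 9 members 6 were called (5 higher, 1 lower), beside 17.7% of all genes tested. Over the 19 alternatives 4 to 7 members were called, with Dpp10, Kcnip1 and Kcnd3 called in all 19. The family was picked with this contrast known, so nothing is read from these counts. Dpp10 ran from 4.87 to 5.64, Kcnip1 from 3.21 to 3.81 and Kcnd3 from 1.51 to 1.84 on the log2 scale, and no scaling moved the median of all genes by over 0.1. Over all genes 3174 were called, 1816 with the intermediate lobe covariate and 1894 to 5495 without 1 library (1978, 1948 and 1894 without 125-day replicates 1, 3 and 4, and 5495 without 35-day replicate 3); the cause was not tested. Values that changed sign were never called: with the anterior lobe covariate Kcnip4 was at 0.27, Hrk at 0.061, Kcnc4 at 0.10 and Npas4 at 0.62, Kcnc4 was at 0.095 with the intermediate lobe covariate, at 0.00 without 125-day replicate 3 and at 0.024 without 35-day replicate 3, Hrk and Npas4 were at 0.074 and 0.17 without 125-day replicate 2, Kcna4 was at -0.026 without 35-day replicate 1, and Slc8a3 at 0.049 without 35-day replicate 4. Over all 8 leave-one-out fits Hrk ran from -0.25 to 0.074, Kcna4 from -0.026 to 0.16, Kcnc4 from -0.28 to 0.024, Npas4 from -0.58 to 0.17 and Slc8a3 from -0.058 to 0.049. With the replicate block 2718 genes and 6 members were called, and the calls of Dlg4, Dpp4, Fos and Kcne5 were lost. Deviations of same-numbered libraries had correlations of 0.04, 0.17, -0.00 and -0.12 over genes, and those of differently numbered ones ran from -0.22 to 0.22. Deviations within an age sum to 0, so this check does not decide whether numbers mark pairs. With the block the SE rose for Kcnd1, Kcnd2 and Kcnip2 and fell for the other members, most for Kcnip1 (0.33 to 0.16). No label states pairs, so the main fit did not use the numbers. Low counts limit Kcnip1 (135 reads) and Dpp10 (218 reads) at 35 days.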
